A study of Schizosaccharomyces pombe with 36 samples.

Results

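Replication in fission yeast (Schizosaccharomyces pombe) was followed by polymerase usage sequencing (Pu-seq) in cells that could not remove ribonucleotides from DNA. The cells carried either a deletion of rnh201 (rnh201-d) or a version of it called rnh201-RED. Of the 36 libraries of the series, the 16 made at the RTS1-rRFB locus of chromosome 2 were used: 8 of rnh201-d and 8 of rnh201-RED, chosen from the genotypes in the sample labels. Each allele was sequenced in 4 matched backgrounds, formed by the pku70 label (pku70-d or pku70+) and the RTS1 barrier (off or on). Each background had a pair of libraries, from a strain with mutated Pol δ (cdc6-L591G) and a strain with mutated Pol ε (cdc20-M630F). The region around the barrier, chro 2 from 840000 to 900000, was left out, so the comparison covers the rest of the genome and the rDNA at the ends of chro 3.

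All 16 strains were h- and carried RTS1natural::Phleo, which deletes the natural RTS1 barrier, together with ade6-704 leu1-32 ura4-D18. The locus held the RTS1 barrier with ura4 and an array of rDNA fork barriers (Rura-10xrDNA), although the label of the rnh201-d pku70+ barrier-off strains names no array. The rnh201-d strains had rnh201::kan and the rnh201-RED strains rnh201-RED:kan. The barrier was off where rtf1, the gene of the protein that makes RTS1 block forks, was replaced (rtf1::nat). Strains labelled as lacking pku70 were Ku70:leu2 in rnh201-d and Ku70::hyg in rnh201-RED. The smt0 marker was named in all rnh201-RED strains, as smt0x in the rnh201-d strains labelled as lacking pku70, and not in the other rnh201-d strains. Each library used here came from its own strain, and no repeat of a strain was analysed here, so n = 4 below counts backgrounds. The p-values of permutation tests measure the spread between backgrounds. Those of the fits over windows and origins measure what remains of it after terms for the pku70 label and the barrier. In the fit of strand counts, all 16 libraries share that estimate.

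Rnh201 is the catalytic subunit of RNase H2. The enzyme has a pair of activities: it nicks DNA at single ribonucleotides, which starts their excision, and it cleaves the longer RNA of DNA:RNA hybrids. Deleting the gene removes both, while the RED (ribonucleotide excision defective) substitutions were designed in budding yeast to remove only the first. In Pu-seq the mutated polymerase leaves extra ribonucleotides, the DNA is cut at them with alkali, and the 5′ ends are counted on each strand in 300-bp bins. Pol ε makes most of the leading strand and Pol δ most of the lagging strand, so the share of each polymerase on a strand tells which way forks moved.

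The RED allele replaces a pair of codons of rnh201 (SPAC4G9.02, chromosome 1, 2254496 to 2255856, plus strand). They are shown as they stand in the unmutated reference gene, because they are what sets rnh201-RED apart from it. In rnh201-d the gene itself is replaced (rnh201::kan). RefSeq (ASM294v3) gives a proline codon (codon 75 of 326) and a later tyrosine codon, in capitals, each with its neighbouring codons, at chromosome 1 from 2254798 to 2254824 and from 2255308 to 2255334.
proline codon: gctggtagaggcCCTgtcttaggacct
tyrosine codon: tggggttctggaTATtcttctgacgct

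The clearest difference between the alleles was in the base composition of the counted strand, so an example of each kind of strand is shown as well. Both are 120 bases of the forward strand, from the 3000-bp windows of chromosome 1 with the lowest adjusted p in each direction for Pol δ. The first, with runs of A in capitals, is chromosome 1 from 1387361 to 1387480, outside the annotated genes, in a window that holds ura3 and cdc17. The second, with runs of T in capitals, is chromosome 1 from 4210926 to 4211045, in the coding sequence of mrc1 (minus strand) and in SPNCRNA.972. A window of chro 3 that was lower for Pol δ had a smaller adjusted p (7.41e-08, edgeR quasi-likelihood test) than this window. Both stretches are more skewed than their windows. The first has 61 A and 26 T (1050 and 862 in its window), and the second 18 A and 53 T (780 and 1092 in its window).
A-rich strand: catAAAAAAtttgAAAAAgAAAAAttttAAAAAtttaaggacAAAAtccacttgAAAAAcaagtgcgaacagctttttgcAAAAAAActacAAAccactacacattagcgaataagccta
T-rich strand: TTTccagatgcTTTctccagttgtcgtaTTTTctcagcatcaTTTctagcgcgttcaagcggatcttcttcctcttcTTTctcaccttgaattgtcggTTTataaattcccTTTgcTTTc

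The libraries held 3304406 to 30967258 counts (median 13516178). The level over rnh201, as counts per bin over those of its flanks, was 0.0907 to 0.312 in the 8 rnh201-d libraries and 0.876 to 1.05 in the 8 rnh201-RED libraries. Over pku70 it was 0.00299 to 0.0145 in the 4 rnh201-RED libraries labelled pku70-d, but 0.691 to 0.801 in the 4 rnh201-d libraries with that label, near the 0.793 to 0.966 of the 8 libraries labelled pku70+. The sequence of pku70 was thus retained in rnh201-d against what the label implies, whether the gene was disrupted without loss of sequence was not tested, and "labelled pku70-d" is used throughout. Over rtf1 the barrier-off libraries had 0.0274 to 0.0910, except the rnh201-d Pol δ library labelled pku70+ with 0.249, against 0.550 to 0.931 with the barrier on.

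In rnh201-d libraries the strand richer in A carried far more counts than its complement, whichever polymerase was mutated, and in rnh201-RED libraries this was weak. The example windows above show it. In the window of ura3 (dihydroorotate dehydrogenase, of pyrimidine synthesis) and cdc17 (the replicative DNA ligase), the forward strand has 1050 A and 862 T. Pol δ libraries had forward levels there of 210, 228, 197 and 236 CPM (counts scaled to the library total) in rnh201-d, against 68.0, 74.0, 77.5 and 82.0 in rnh201-RED (labelled pku70-d off and on, then labelled pku70+ off and on, as in every list of 4 below). Every rnh201-d library lay above every rnh201-RED library, with a log2 fold change of 1.68 (SE 0.0831, adjusted p = 9.15e-08, edgeR quasi-likelihood test). Pol ε libraries differed in the same direction, with 228, 233, 244 and 237 CPM in rnh201-d, against 121, 113, 124 and 130 in rnh201-RED.

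The window of mrc1, which encodes claspin, a checkpoint mediator that travels with the fork, has 780 A and 1092 T on its forward strand and went the other way. Pol δ forward levels were 19.8, 22.6, 16.3 and 14.4 CPM in rnh201-d, against 95.7, 89.3, 64.3 and 71.4 in rnh201-RED, with a log2 fold change of -1.99 (SE 0.0902, adjusted p = 7.85e-08). Pol ε forward levels were 58.5, 62.2, 49.9 and 47.3 in rnh201-d, against 183, 186, 141 and 159 in rnh201-RED. The forward over reverse ratio of Pol ε was 0.399, 0.462, 0.382 and 0.349 in rnh201-d, against 2.13, 2.27, 1.46 and 1.89 in rnh201-RED, so Pol ε alone favoured opposite strands in the alleles. That of Pol δ was 0.0806, 0.107, 0.0714 and 0.0604 in rnh201-d, against 0.748, 0.674, 0.562 and 0.563 in rnh201-RED. In every pair of both alleles the Pol δ ratio was below the Pol ε ratio, and it is this difference that fork direction is read from.

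Over the genome, each strand of each 3000-bp window was tested separately (8345 strand windows). Of these, 5789 were called for Pol δ (69.4%), 2823 higher (33.8%) and 2966 lower (35.5%) in rnh201-d, and 5055 for Pol ε (60.6%), 2689 higher (32.2%) and 2366 lower (28.4%). A window was called where the adjusted p was at most 0.05. Without the trimmed-mean scaling the median of all windows shifted by -0.147 (Pol δ) and -0.138 (Pol ε) on the log2 scale, and the split became 2175 higher and 3676 lower for Pol δ and 1946 and 3138 for Pol ε. The median size of the change was 0.44 for Pol δ and 0.36 for Pol ε (log2), and 1113 and 505 of the called windows changed more than 2-fold. In 4434 windows both polymerases were called in the same direction and in 33 in opposite directions. The 4467 called in both were 77.2% of the Pol δ calls and 88.4% of the Pol ε calls.

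The calls followed the composition of the strand. AT skew is the excess of A over T on the counted strand, as a share of A plus T, and 49.8% of all windows had more A. Among Pol δ calls, 93.6% of the higher windows had more A and 94.1% of the lower windows had more T, and among Pol ε calls the shares were 93.5% and 96.4%. In the 10% of windows with the most A (median skew 0.12), 805 of 832 were called higher and 0 lower for Pol δ, and 758 were called higher and 1 lower for Pol ε. In the 10% with the most T (median skew -0.12), 783 of 833 were called lower and 0 higher for Pol δ, and 733 lower and 6 higher for Pol ε. Across 8328 windows the log2 fold change correlated with AT skew at r = 0.882 for Pol δ and 0.855 for Pol ε, a description over windows that share the same 16 libraries.

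The same relation was read from each library alone, as the change of log2 (forward over reverse counts) for each 0.1 of AT skew in the first 3 Mb of chro 1. For Pol δ it was 1.67, 1.63, 1.78 and 1.98 in rnh201-d, against 0.104, 0.122, 0.156 and 0.0920 in rnh201-RED. For Pol ε it was 1.22, 1.18, 1.56 and 1.5 in rnh201-d, against 0.113, 0.0716, 0.0808 and 0.0619 in rnh201-RED. The lowest of the 8 rnh201-d slopes was several times the highest of the 8 rnh201-RED slopes. The plot of strand asymmetry by AT skew shows the whole range.

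**Figure D1:**
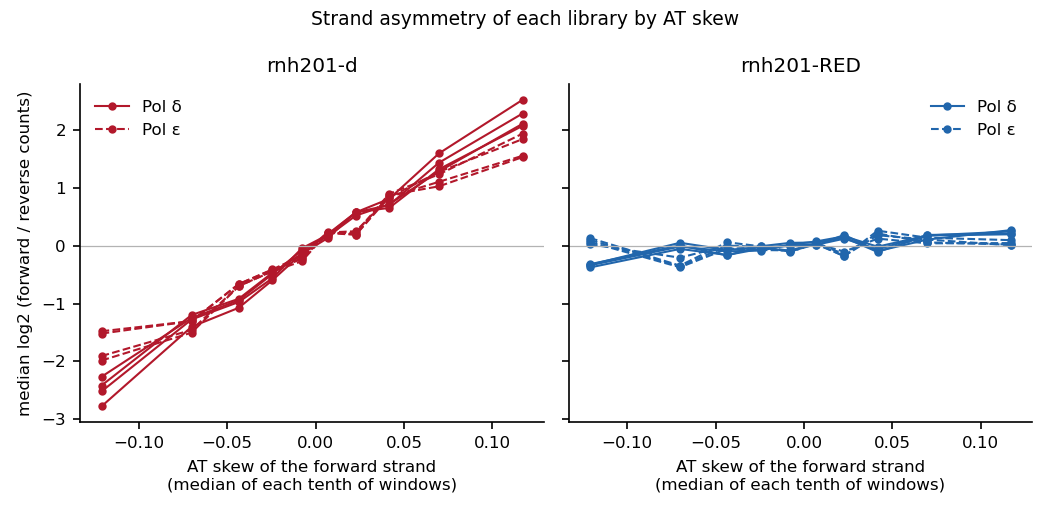
Median log2 ratio of forward to reverse counts (y axis) in 10 equal groups of the 3000-bp windows ordered by AT skew of the forward strand (x axis, median of each group), with 1 line per library, solid for Pol δ and dashed for Pol ε, rnh201-d on the left and rnh201-RED on the right. The 8 rnh201-d lines climb to between 1.54 and 2.53 in the most A-rich group, and the 8 rnh201-RED lines stay between 0.0107 and 0.272 there.

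The allele and the preparation of the libraries cannot be told apart, because elsewhere in the series the deletion did not always go with this relation. The other 16 rnh201-d libraries had the deletion by their counts (level over rnh201 0.114 to 0.256), with slopes of 0.131 to 1.23 per 0.1 of AT skew in the 14 of Pol δ and Pol ε and of -0.363 and 0.238 in the 2 of another polymerase, Pol α. The adhRtf pair, of the same locus and allele with rtf1 under the adh1 promoter, had 0.141 and 0.159, in the range of RED. The tandem-RTS1 pair and the pair with the array on chromosome 1 had 0.763 to 1.23, and the 8 TuraR libraries 0.131 to 0.577. The other 4 RED libraries, 2 of them of Pol α, had 0.0664 to 0.293.

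The asymmetry of a window has a part that is the same in Pol δ and Pol ε, and a part that is opposite in them, as the division of the strands at a fork makes it. The parts are the sum and the difference of the log2 ratios of a pair, each times 0.5. The SD over 4148 windows of the shared part was 1.13, 1.13, 1.29 and 1.34 in rnh201-d, against 0.452, 0.451, 0.281 and 0.330 in rnh201-RED. That of the opposed part was 1.39, 1.24, 1.54 and 1.52 in rnh201-d, against 1.42, 1.35, 1.13 and 1.46 in rnh201-RED. The shared part thus lay apart in the alleles and the opposed part overlapped. The log2 ratios of Pol δ and Pol ε correlated at r = -0.204, -0.0921, -0.178 and -0.122 in rnh201-d, against -0.825, -0.803, -0.918 and -0.904 in rnh201-RED. The shared part correlated with AT skew at 0.888 to 0.942 in rnh201-d and 0.132 to 0.36 in rnh201-RED. The opposed part did so at -0.153 to -0.0801 in rnh201-d and -0.053 to -0.029 in rnh201-RED. With GC skew (the excess of G over C) the shared part correlated at 0.157, 0.0466, 0.211 and 0.203 in rnh201-d. In rnh201-RED these values were -0.704, -0.735, 0.208 and -0.52, so its smaller shared part also followed composition in most pairs.

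**Figure D2:**
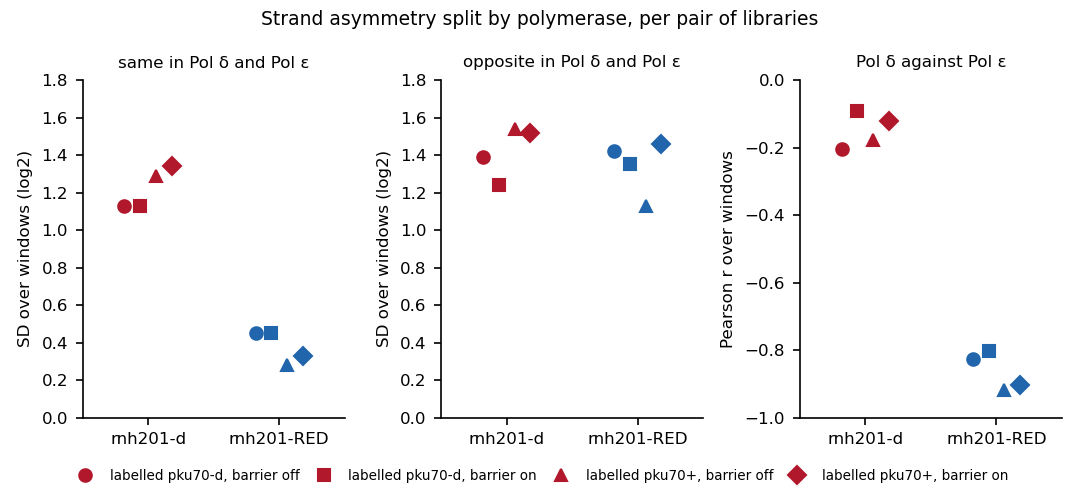
SD over 3000-bp windows of the strand asymmetry that is the same in Pol δ and Pol ε (left, log2), of that which is opposite in them (middle, log2), and Pearson r of the Pol δ against the Pol ε log2 ratio (right), with 1 point per pair of libraries, rnh201-d in red and rnh201-RED in blue, and the shape giving the background. The shared part is 1.13 to 1.34 in rnh201-d and 0.281 to 0.452 in rnh201-RED, and the opposed part overlaps.

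Of the feature classes taken from the annotation, repeats had the largest share of calls. Windows with an LTR or a retrotransposon (Tf elements, which carry an integrase and a reverse transcriptase) were called in 88.3% of 60 strand windows for each polymerase, with a median change of 1.17 (Pol δ) and 0.95 (Pol ε) in size on the log2 scale. On the strand with more A, 28 of 30 were higher and 0 lower for Pol δ, with a median log2 fold change of 1.17. On the strand with more T, 24 of 30 were lower and 1 higher, with a median of -1.12. Pol ε had 25 higher and 2 lower on the A-rich strand and 26 lower and 0 higher on the T-rich strand. These windows were strongly skewed, with a median AT skew of 0.119 on the A-rich and -0.119 on the T-rich strand. Among all windows of like skew (the 10% at each extreme, above), 805 of 832 were called higher and 783 of 833 lower for Pol δ. The share in repeats was thus no larger than in windows of like skew, and an effect of the repeats themselves was not tested. Against 69.4% of all windows, the shares called for Pol δ in other classes were 60.4% of 270 windows with a tRNA gene, 65.8% of 310 with a ribosomal protein gene, 55.8% of 52 with a histone gene and 74.6% of 138 in the outermost 50 kb of chro 1 and 2. In the rDNA, the outermost 24 kb of chro 3, 27.3% of 33 windows were called, 9 higher and 0 lower. Origin windows were called at 65.8% (447 higher and 297 lower of 1130) and termination windows at 74.7% (387 higher and 456 lower of 1128).

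Among the other windows with the lowest adjusted p, those higher for Pol δ held jac1 (a J-domain co-chaperone), sfc2 (TFIIIA), gwt1 (of GPI-anchor synthesis), psp3 (a serine protease) and ypt7 (a vacuolar Rab GTPase), among others. The lower ones held erg12 (mevalonate kinase), ted1, sts5 (an RNA-binding exoribonuclease homologue) and erm1. In the sts5 window (chro 3, forward strand, 695 A and 1007 T), Pol δ libraries averaged 33.4 ± 7.68 CPM in rnh201-d and 122 ± 27.2 in rnh201-RED (SD, n = 4 each), with a log2 fold change of -1.73 (SE 0.0737, adjusted p = 7.41e-08). For Pol ε the largest change among the named windows was at SPAC2H10.04 (chro 1, 5271001 to 5274000, forward strand, 639 A and 1298 T), with 34.1 ± 16 CPM in rnh201-d and 252 ± 75.8 in rnh201-RED. Its log2 fold change was -2.81 (SE 0.173, adjusted p = 1.44e-06). The window of wee1, the kinase that delays mitosis, also fell for Pol ε, by 1.89 on the log2 scale (SE 0.12, adjusted p = 1.44e-06), to 75.1 ± 30.3 CPM in rnh201-d, against 312 ± 136 in rnh201-RED.

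The allele effect differed between Pol δ and Pol ε in 143 windows (1.71%), 81 (0.971%) with the larger log2 fold change in Pol δ and 62 (0.743%) with the smaller. Leaving out a background gave 0 to 700, with 700 without the background labelled pku70+ with the barrier off. At ght6, a hexose transporter gene (chro 3, 204001 to 207000, reverse strand), Pol δ averaged 61.9 ± 20.4 CPM in rnh201-d and 252 ± 45.9 in rnh201-RED, while Pol ε averaged 183 ± 52.6 in rnh201-d and 131 ± 23.1 in rnh201-RED (SD, n = 4 each). At the retrotransposon Tf2-6 and the neighbouring pvg2 (chro 1, 4020001 to 4023000, forward strand), Pol δ averaged 111 ± 12.6 in rnh201-d and 54.2 ± 4.45 in rnh201-RED, and Pol ε 143 ± 7.64 in rnh201-d and 162 ± 10.8 in rnh201-RED. The differences of the log2 fold changes were -2.50 (SE 0.29, adjusted p = 0.00182) at ght6 and 1.22 (SE 0.106, adjusted p = 0.000202) at Tf2-6.

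The allele effect differed with the pku70 label in 1622 windows (19.4%), 985 more positive (11.8%) and 637 more negative (7.63%) with the label pku70-d. It differed with the barrier state in 0 (52 at an unadjusted p under 0.05, edgeR, and 0 after adjustment and 110 before it in DESeq2). Both 52 and 110 are fewer than chance alone would give. The barrier fit had no term for allele by pku70 label, so variation with that label widened its spread. The 0 therefore cannot show that the allele effect is the same in both barrier states. Of the 5789 Pol δ calls, 5776 had the same sign in the backgrounds labelled pku70+ alone, and 4353 were also called there. Of the 5055 Pol ε calls, 5051 had the same sign and 3555 were also called. Among the 16 libraries, the RED libraries labelled pku70-d stood apart in composition. With that label, counts per bin correlated with GC content at 0.0784 to 0.188 in rnh201-d, against 0.41 to 0.584 in rnh201-RED. With the label pku70+ the values were -0.0261 to 0.0142 in rnh201-d, against -0.0787 to -0.0394 in rnh201-RED. The SD of log2 counts over bins was 0.723 to 0.909 in rnh201-d, against 0.371 to 0.537 in RED labelled pku70+ and 0.53 to 0.735 in RED labelled pku70-d. The last range overlapped that of rnh201-d, and the Pol δ pair labelled pku70-d with the barrier off had 0.723 in rnh201-d and 0.735 in rnh201-RED.

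Fork direction was nearly the same in the alleles once the polymerases were combined. The percent of rightward replication of a window is the mean of the Pol ε share on the forward strand and the Pol δ share on the reverse strand. It correlated between rnh201-d and rnh201-RED pairs at 0.982 and above over windows (16 pairings), against 0.987 to 0.994 within rnh201-d and 0.987 to 0.997 within rnh201-RED. The forward over reverse counts of single libraries correlated between the alleles at only 0.718 to 0.787 for Pol δ and 0.810 to 0.851 for Pol ε, against 0.913 and above within an allele. Of 4173 windows, 1 (0.024%) was called, and 718 had an unadjusted p under 0.05 (limma). This window (chro 1, 2040001 to 2043000) holds an origin, psc3 (a cohesin subunit) and snu13. Its rightward replication was 31.9%, 31.5%, 28.4% and 27.3% in rnh201-d, against 43.1%, 43.2%, 41.2% and 38.2% in rnh201-RED, a difference of -11.7 points (SE 1.25, adjusted p = 0.0131). Where shares were formed in each 300-bp bin and then averaged, its difference was -0.694 points (adjusted p = 0.915) and 0 windows were called (333 at an unadjusted p under 0.05).

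The remaining difference in fork direction also moved with composition. The rnh201-d minus rnh201-RED difference had an SD of 2.66 points over 4148 windows and correlated with AT skew at -0.65. In the single backgrounds this correlation was -0.579, -0.481, -0.141 and -0.63. The RED pair labelled pku70+ with the barrier off stood apart: without that background 1188 windows were called (595 higher and 593 lower), against 0 when any of the other 3 backgrounds was left out.

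Origins were placed on the mean profile of all 8 pairs, as rises of rightward replication of at least 10 points. There were 565, with a median strength (the rise in percentage points) of 39.8, and they lay in AT-rich DNA (69.9% AT within 500 bp of the midpoint, against 63.9% in all windows), as fission yeast origins are known to. Mean strength was 41.7, 39.4, 44.9 and 46.2 points in the rnh201-d pairs, against 40.5, 39.8, 36.3 and 43.7 in the rnh201-RED pairs. The mean was 43.0 ± 3.08 in rnh201-d and 40.1 ± 3.03 in rnh201-RED (SD, n = 4 each), a difference of 2.95 points (exact permutation test, two-sided p = 0.2, adjusted p = 0.343), and rnh201-d was higher in 3 of 4 backgrounds. Most of the difference lay in the background with the low RED pair (labelled pku70+, barrier off), at 8.56 points, against 1.23, -0.452 and 2.47 in the others. With shares formed per bin before smoothing, the mean was 41.6 points in rnh201-d and 40.2 in rnh201-RED, a difference of 1.39.

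No single origin was called (0 of 565, 99 at an unadjusted p under 0.05, limma), although 148 were without the background labelled pku70+ with the barrier off, and the allele means correlated at 0.989 over origins. The 5 strongest had 78.2 to 81.6 points in rnh201-d and 74.7 to 77.8 in rnh201-RED. The rnh201-d mean was higher at 463 origins and lower at 102. Without the background labelled pku70+ with the barrier off, it was higher at 346 and lower at 219, with a mean difference of 1.08 points. The largest positive difference was at origin 52 (chro 1, 1357801 to 1361400, in SPNCRNA.736 and SPNCRNA.737), with 25, 22.5, 13.2 and 21.4 points in rnh201-d, against 8.51, 8.81, 5.61 and 8.83 in rnh201-RED. The largest negative one was at origin 150 (chro 1, 3567901 to 3571500, at ntr2, a spliceosome disassembly factor), with 3.16, 2.83, 10.8 and 5.8 points in rnh201-d, against 16.9, 13.0, 15 and 19.3 in rnh201-RED. Groups did not overlap at either, but neither passed the test (adjusted p = 0.131 and 0.135).

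**Figure D3:**
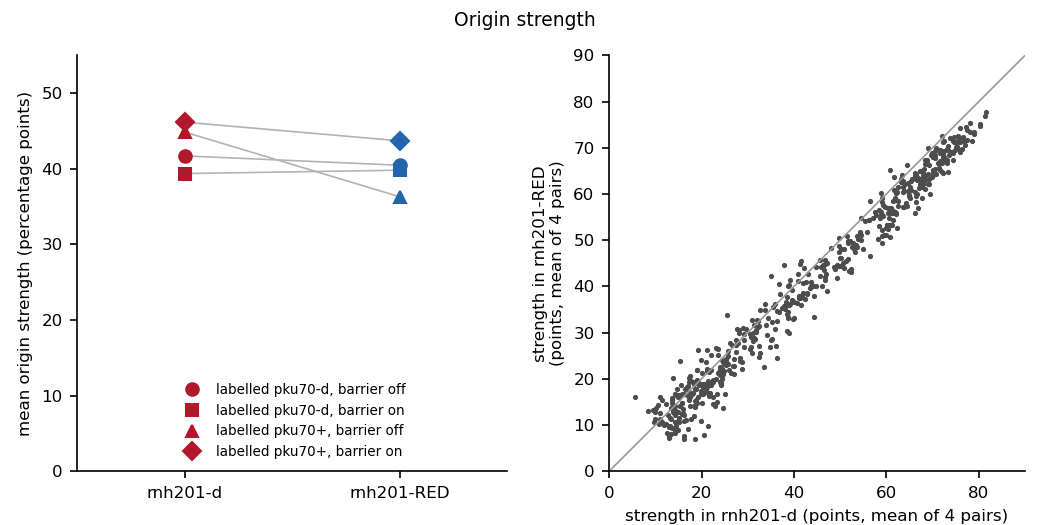
Left: mean strength of 565 origins (percentage points of rightward replication) in each pair, rnh201-d in red left of rnh201-RED in blue, with lines joining the same background and the shape giving the background. Right: strength of each origin in rnh201-d (x axis) against rnh201-RED (y axis), means of 4 pairs, with the line of equality. The points follow the line (r = 0.989) and lie mostly below it, as the rnh201-d mean is higher at 463 of 565. Without the background labelled pku70+ with the barrier off it is higher at 346.

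Termination zones, the falls between origins, were 564. The median absolute difference of a midpoint between the allele means was 376 bp, where the median SD of a midpoint was 332 bp within rnh201-d and 292 bp within rnh201-RED, and at 95 zones the alleles did not overlap. Their midpoints relative to the mean profile averaged -24.8, -40.8, -13.0 and -0.279 bp in rnh201-d, against -60.9, -41.3, -29.9 and -51.8 bp in rnh201-RED. The difference of the means over zones was 26.3 bp (exact permutation test, p = 0.0571, adjusted p = 0.171). It was 7.89 bp with shares formed per bin and had the opposite sign, -29.7 bp, with smoothing over 7 bins (p = 0.543, exact permutation test).

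The between-strand contrast is how far the log2 strand ratio of a polymerase differs between the 10% of windows most often copied leftward and the 10% most often copied rightward. For Pol δ it was 5.07, 4.33, 5.25 and 5.35 in rnh201-d, against 4.39, 4.28, 4.29 and 4.86 in rnh201-RED. The mean was 5.0 ± 0.46 in rnh201-d and 4.46 ± 0.28 in rnh201-RED, higher in rnh201-d in 4 of 4 backgrounds (exact permutation test, p = 0.0857, adjusted p = 0.171). For Pol ε it was 4.41, 4.46, 5.29 and 5.22 in rnh201-d, against 5.06, 4.73, 3.13 and 4.92 in rnh201-RED (p = 0.6, exact permutation test, adjusted p = 0.655). With AT and GC skew taken out by regression the differences were 0.15 for Pol δ and 0.39 for Pol ε, against 0.54 and 0.39 without. None of the 12 measures tested by permutation passed after adjustment. With 4 against 4 the smallest p that the test can give is 0.0286. A single measure at that value cannot pass after adjustment over 12, so not passing does not show that the alleles are alike.

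The Pol δ share averaged over both strands was meant to show where Pol δ copies more or less than elsewhere, apart from fork direction. From counts summed over a window it is not free of fork direction where a window holds both directions, as at origins (below). Its SD over windows was 4.65, 5.16, 4.74 and 5.36 points in rnh201-d, against 3.69, 3.20, 4.57 and 4.64 in rnh201-RED. The groups did not overlap, and the difference of 0.954 points had the smallest possible p (exact permutation test, p = 0.0286, adjusted p = 0.171). It was 1.46 points in the backgrounds labelled pku70-d and 0.447 points in those labelled pku70+. Over windows, the rnh201-d minus rnh201-RED difference of the share correlated with GC content at -0.43 with the label pku70-d and 0.0282 with pku70+. The part of GC content in this spread was not tested. In limma 253 of 4173 windows were called (6.06%), 116 higher (2.78%) and 137 lower (3.28%) in rnh201-d. Leaving out 1 background gave 67 (without that labelled pku70+ with the barrier on) to 765 calls (without that with the barrier off).

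These calls gathered at origins. Of 565 windows with an origin midpoint 144 were called (25.5%), 85 higher and 59 lower, against 109 of 3608 other windows (3.02%). At crm1 (the nuclear export receptor, chro 1, 2802001 to 2805000) the Pol δ share of summed counts was 71.3%, 70.8%, 72.6% and 75.1% in rnh201-d, against 48.2%, 53.0%, 56.0% and 53.0% in rnh201-RED. The difference was 19.9 points (SE 1.37, adjusted p = 1.69e-05). At ght6 this share was 29.5%, 29.7%, 26.6% and 29.0% in rnh201-d, against 49.1%, 51.4%, 68.0% and 54.7% in rnh201-RED, a difference of -27.1 points (SE 2.85, adjusted p = 0.000119).

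The order of summing and sharing decided most of these calls. An origin window holds leftward and rightward bins, and a share of summed counts weights each bin by its counts. When the share was formed in each 300-bp bin and then averaged, 46 windows were called, 23 in each direction. They included 3 of 565 origin windows (0.531%) and 43 of 3608 others (1.19%), and 33 of the 253 calls remained. At crm1 the difference became 2.32 points (adjusted p = 0.490). At ght6 it was -7.15 points (adjusted p = 0.0148) and at Tf2-6, with 14.5 points from summed counts, 6.34 points (adjusted p = 0.0165). These were the only named windows still called. The difference in SD between the alleles became 0.595 points (p = 0.143, exact permutation test).

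**Figure D4:**
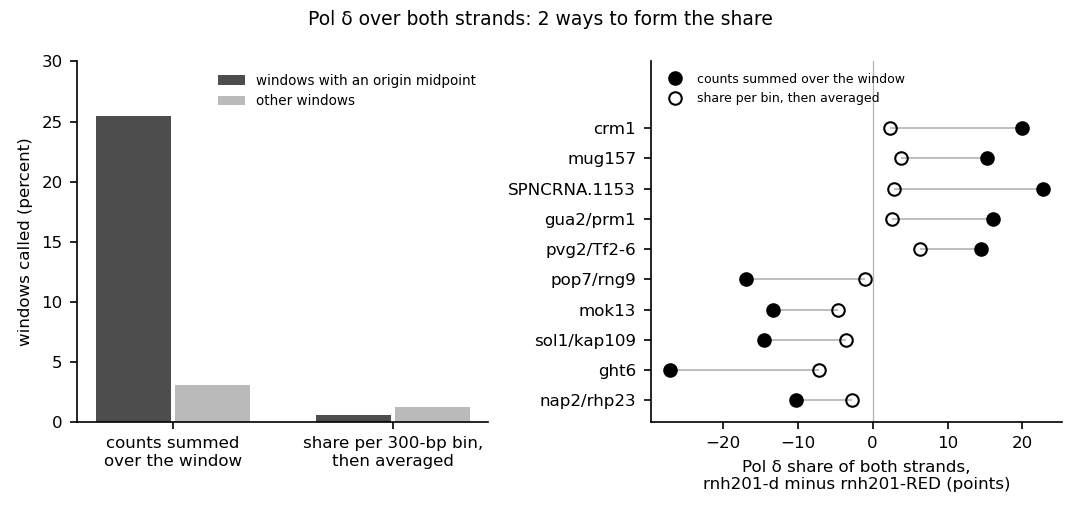
Left: percent of 3000-bp windows called for the Pol δ share of both strands, with an origin midpoint (dark) or without (light), from counts summed over the window or from shares of 300-bp bins averaged. Right: rnh201-d minus rnh201-RED difference (percentage points) of the named windows by both ways, filled for summed counts and open for averaged shares. Of the origin windows 25.5% are called from summed counts and 0.531% from averaged shares, and all 10 differences keep their sign and shrink.

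The rDNA repeats at the ends of chro 3 had higher mean levels in rnh201-d for both polymerases, without passing the test after adjustment, and for Pol δ the direction within backgrounds depended on the scaling. Each repeat holds the 18S, 5.8S and 28S rRNA genes, and natural fork barriers lie in the spacer between repeats. The array is collapsed to a few copies in the assembly, so levels over the median bin of the genome include copy number, which may differ between strains. Over the outermost 24 kb at both ends, Pol δ libraries had 28.5, 34.9, 26.6 and 30.7 times the median bin in rnh201-d, against 26.7, 17.7, 24 and 18.2 in rnh201-RED. The lowest rnh201-d value was just under the highest rnh201-RED value (26.6 against 26.7), and the mean was 30.2 ± 3.54 in rnh201-d and 21.6 ± 4.42 in rnh201-RED (exact permutation test, p = 0.0571, adjusted p = 0.171). Pol ε libraries had 12.3, 12.2, 16.3 and 16.1 times in rnh201-d, against 8.03, 8.04, 11.1 and 13.3 in rnh201-RED (p = 0.0857, exact permutation test, adjusted p = 0.171). Over the median bin, the folds of rnh201-d over rnh201-RED were 1.07, 1.97, 1.11 and 1.69 for Pol δ and 1.53, 1.51, 1.47 and 1.21 for Pol ε. As a percent of all counts of a library they were 0.968, 1.58, 0.997 and 1.34 for Pol δ, higher in 2 of 4 backgrounds, and 1.33, 1.24, 1.29 and 1.08 for Pol ε. Over the mean bin of the genome the differences were 3.39 for Pol δ (p = 0.2) and 2.06 for Pol ε (p = 0.257, exact permutation tests).

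The excess was uneven along the repeat, as seen when it was divided by its genes, a division made after the values were seen. Between the 28S and 18S genes at the left end lie 5.8S (9842 to 10006 and 20712 to 20876 of chromosome 3 in ASM294v3, minus strand) and the internal transcribed spacers, with 24.5% GC and an excess of A on the forward strand (AT skew 0.118). Pol δ levels there were 63.0, 78.2, 54.7 and 66.8 times the median bin in rnh201-d, against 7.45, 5.08, 19.3 and 15.4 in rnh201-RED, 2.83 to 15.4-fold higher. Pol ε levels were 10.8, 9.24, 14.4 and 11.7 in rnh201-d, against 3.02, 2.38, 6.99 and 7.19 in rnh201-RED. The groups lay apart for both polymerases. The right end was similar for Pol δ, with 61.3 to 95.1 in rnh201-d and 4.43 to 23.5 in rnh201-RED. Pol ε overlapped there, with 6.87 to 10.5 in rnh201-d and 1.8 to 11.1 in rnh201-RED. Both ends hold copies of the same repeat, so the right end is not independent evidence. How reads were divided between the copies was not tested. This part of the repeat is 3 bins at the left end and 2 at the right, and no test was run on them.

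The rRNA genes themselves, with 44.8% (18S) and 47.1% GC (28S), overlapped between the alleles for Pol δ. Pol ε also overlapped in 18S, but in 28S at the left end every rnh201-d library lay above every rnh201-RED library (1.21, 1.05, 1.49 and 1.49-fold). In the 28S gene at the left end, Pol δ levels were 32.0, 39.7, 30.0 and 30.6 in rnh201-d, against 66.6, 43.6, 24.8 and 26.4 in rnh201-RED. The RED libraries labelled pku70-d were thus the highest in this GC-rich gene and the lowest in the AT-rich spacer. Between the 18S and the next 28S (30.9% GC), Pol δ levels were 42.7, 49.2, 39.7 and 37.0 in rnh201-d, against 17.6, 12.2, 50.4 and 28.6 in rnh201-RED, again with the RED libraries labelled pku70-d lowest. The part of base composition in the rDNA level was not tested.

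**Figure D5:**
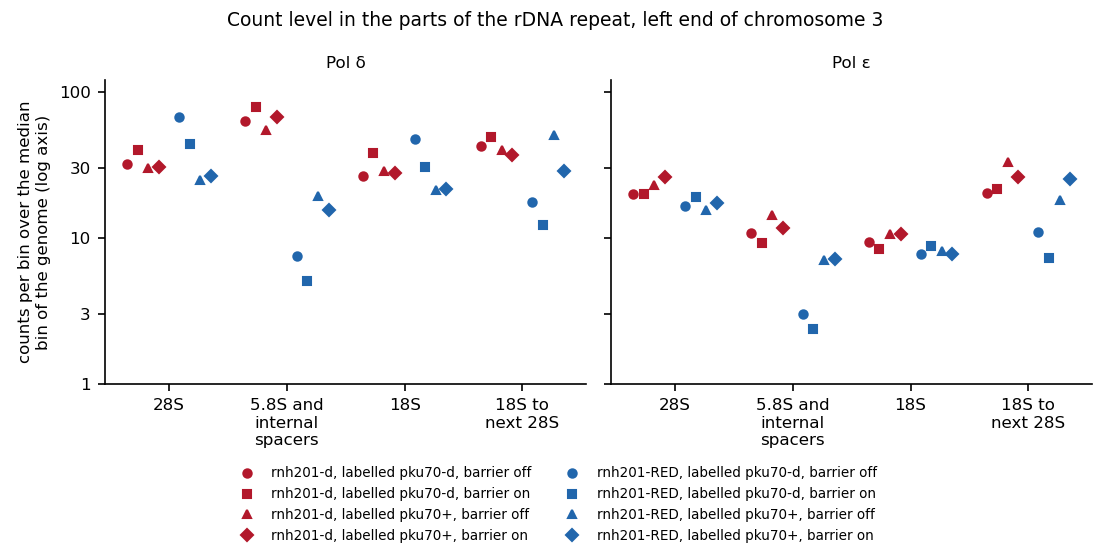
Counts per 300-bp bin over the median bin of the genome (log y axis) in the parts of the rDNA repeat at the left end of chro 3, for Pol δ (left) and Pol ε (right), with 1 point per library, rnh201-d in red left of rnh201-RED in blue and the shape giving the background. The alleles lie apart at 5.8S and its spacers (54.7 to 78.2 against 5.08 to 19.3 for Pol δ) and overlap in 18S.

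Rightward replication of the left end was 43.1% ± 2.55 in rnh201-d and 41.9% ± 3.56 in rnh201-RED (exact permutation test, p = 0.571), and of the right end 57.4% ± 3.27 in rnh201-d and 59.5% ± 3.7 in rnh201-RED (p = 0.429, exact permutation test; SD, n = 4 each). The differences had opposite signs by pku70 label, 5.32 points (labelled pku70-d) against -2.93 (labelled pku70+) at the left end and -5.66 against 1.4 at the right end. Without the background labelled pku70+ with the barrier off they were 4.07 and -5.42 points, with p = 0.1 at each end, the smallest that an exact permutation test of 3 against 3 can give. The ends hold copies of the same repeat in opposite orientation, so their values are not independent of each other. Within the repeat, 18S was copied mostly leftward at the left end (17.7% ± 6.38 rightward in rnh201-d and 20.1% ± 5.12 in rnh201-RED) and mostly rightward at the right end (83.2% ± 5.86 in rnh201-d and 80.6% ± 4.83 in rnh201-RED). The annotation places 18S on the minus strand at the left end and on the plus strand at the right end, so in both alleles most forks crossed it in the direction of its transcription. The Pol δ share of library-scaled counts in the rDNA, over both strands, was 65.8% ± 5.70 in rnh201-d and 66.2% ± 7.38 in rnh201-RED (p = 0.914, exact permutation test). This share was formed from counts summed over both ends. By 3000-bp windows, the median of the 17 rDNA windows was 58.0% in rnh201-d and 60.2% in rnh201-RED. The median window of the genome had 48.2% in rnh201-d and 48.9% in rnh201-RED. The Pol δ and Pol ε libraries come from different strains, so the rDNA shares include any difference in rDNA copy number between them, which was not tested.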

How the data were processed

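Pu-seq was compared in 8 rnh201-d and 8 rnh201-RED libraries. The authors aligned the reads with Bowtie2 (version not given in the sources used here) and deposited raw counts of 5′ ends per 300-bp bin and strand, made with a custom Perl script, with no normalization. The build was not given in the sources used here. Count profiles aligned best to those of the libraries with the array on chromosome 1, whose chro 2 and 3 were taken to follow RefSeq ASM294v3, with offsets of 3700 and 2840 bp on parts of chro 2 and -1760 bp on most of chro 3 (profile correlations 0.761 to 0.844). Genes and bases were read at shifted positions there, while coordinates of windows and origins are those of the files.

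Counts were summed over 3000-bp windows of each strand, kept with at least 10 counts in at least 8 libraries, and tested in edgeR 4.0.16 (quasi-likelihood, trimmed-mean scaling, R 4.3.3) with allele, pku70 label and barrier within each polymerase. Shares were made from counts divided by the library total and tested over 8 pairs in limma 3.58.1. Origins were rises of at least 10 points after smoothing over 11 bins. Single values were compared by exact two-sided permutation tests of 4 against 4 (Python 3.11.15 with numpy 2.4.6). Tests across windows and the 12 permutation tests were adjusted by Benjamini-Hochberg. Log2 ratios used a pseudocount of 0.5. Scripts were tested on simulated counts. Reads have no molecular identifiers, and the depth of 3304406 to 30967258 counts gave 72 to 678 counts in the median bin of a library.

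Named windows were the 5 with the lowest adjusted p per contrast and direction; named origins were the 5 strongest and, as none was called, the 5 with the largest difference each way. The comparison, measures and lists were chosen with earlier results of these data known. DESeq2 1.42.0, other window sizes, scalings and filters, leaving out each background, and a block for the matched background were tried. The annotation named no centromere window. The other libraries of the series served only for the composition check, with the level over rnh201 that goes with it, and for the coordinate offsets.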

Additional observations from a re-analysis of the deposited data

Results flagged for a closer look

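At origin 52 the rnh201-RED pair labelled pku70+ with the barrier off had a strength of 5.61 points, far from the other 3 RED pairs (8.51 to 8.83). It was the only such value among 58 groups of 4 examined, and chance alone marks about 1 group in 20.

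The allele effect on strand counts differed with the pku70 label in 1622 windows by the interaction test of edgeR, 985 in the positive and 637 in the negative direction. The sequence of pku70 was not lost by its counts in the rnh201-d libraries with that label, and whether the gene was disrupted without loss of sequence was not tested.

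The rnh201-d minus rnh201-RED difference in Pol ε contrast was -0.458 in backgrounds labelled pku70-d and 1.23 in those labelled pku70+, with every background of a label on its own side. The difference in the spread of fork direction was likewise -0.89 and 2.58 points. Neither difference between labels was tested.

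Counts over pku70 were 0.691 to 0.801 of the flanks in the 4 rnh201-d libraries labelled pku70-d. Counts over rtf1 were 0.249 of the flanks in the rnh201-d Pol δ library labelled pku70+ with the barrier off, above the other barrier-off libraries.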

How the results depend on the processing

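Of the alternatives run, 136 values kept their direction and side of the threshold (counts within 1.5 times), 32 moved and 8 changed sign. The values that changed sign were differences that had not passed the test. Windows of 900 bp gave 19291 calls for Pol δ and 16763 for Pol ε, of 27809 tested. The allele-by-polymerase count of 143 became 721 in DESeq2, 4 with 900-bp windows, 84 without terms for pku70 and barrier, 1 with the backgrounds labelled pku70+ alone and 1386 with those labelled pku70-d alone. Leaving out a background gave 0 to 700. The allele-by-pku70 count was 2523 in DESeq2. For fork direction, 2 windows were called without bins of extreme counts, 35 without terms for pku70 and barrier, and 0 on the logit scale, with 9000-bp windows or with shares averaged over bins. Leaving out a background gave 0 to 1188. For Pol δ over both strands the count was 393 with 9000-bp windows (of 1391), 46 with shares averaged over bins and 105 with the backgrounds labelled pku70+ alone, and 67 (without that labelled pku70+ with the barrier on) to 765 (without that with the barrier off) when a background was left out. Origins called were 1 with smoothing over 7 bins and 0 to 148 when a background was left out, 148 being without that labelled pku70+ with the barrier off. In the backgrounds labelled pku70+ alone the difference in fork direction spread was 2.58 points, and that in rDNA fork direction changed sign at both ends, to -2.93 points at the left and 1.4 points at the right. With smoothing over 7 bins the difference in termination zone position changed sign, to -29.7 bp. Leaving out a background gave differences of -0.207 to 0.731 in Pol ε contrast, -0.434 to 1.59 points in fork direction spread, -0.413 to 4.07 points in rDNA fork direction at the left end and -2.36 to 1.56 points in the Pol δ share of the rDNA, so each of these changed sign. The first 2 did so without the background labelled pku70+ with the barrier off, the third without that labelled pku70-d with the barrier on, and the last without either barrier-off background. The fits limited to a pku70 label, the shares averaged over bins and the regression on skew were chosen after seeing the data. The cause of these changes was not tested.

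With the matched background as a replicate block, the allele-by-polymerase count was 63, and the counts were 5607 for Pol δ, 4767 for Pol ε, 1 for fork direction, 202 for Pol δ over both strands and 0 for origins. The blocks stand for backgrounds matched by pku70 label and barrier state, and not for shared cultures. Under the label pku70-d the sequence of pku70 was retained in rnh201-d and lost in rnh201-RED, so the match is by label only. Relabelling within the blocks can give no p below 0.125.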
